A study of Mus musculus with 19 samples.

Results

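Cytidines in nuclear protein-coding genes at which hydrazine-aniline cleavage sequencing (HAC-seq) reads often began are described here in neural progenitor cells (NPCs) of the mouse cerebral cortex. Of 118890 distinct C sites in the deposited table, 1203 sites in 559 genes met the rule. The first gene listed for the site had to be protein-coding and nuclear, no tRNA, snoRNA or scaRNA could be listed there, every one of the 7 libraries had to hold 50 or more reads at the site, and the mean cleavage ratio of the WT libraries had to be 10% or more. The cleavage ratio is the number of reads that start 1 base downstream of the C, divided by all reads at the site, which are called its coverage. The WT ratios chose the sites, so WT levels are given as description and a difference between genotypes has its WT side chosen. The cKO ratios were not used by the rule.

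The NPCs came from embryonic day 17.5 and were either Mettl8 cKO, a conditional knockout, or WT. All cultures of both genotypes grew on Matrigel in medium with B27, N2, bFGF and EGF, each growth factor at 20 ng/mL. HAC-seq libraries from 8000 ng of total RNA numbered 3 for cKO and 4 for WT, and RNA-seq libraries from 300 ng numbered 6 for cKO and 6 for WT. The labels used here do not name the Cre driver, the deleted part of Mettl8 or the number of embryos, so the p-values reflect how these libraries vary, part of which may be technical.

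3-Methylcytidine (m3C) is a methyl mark on the Watson-Crick face of cytidine, best known from the anticodon loop of tRNAs. METTL8 places it in mitochondrial tRNAs, while METTL2 and METTL6 act on cytosolic tRNAs. HAC-seq treats RNA with hydrazine, which opens the m3C base, and with aniline, which then breaks the chain, so that a read begins at the next base. A read that begins there for another reason, such as the natural 5′ end of a small RNA or of an mRNA, is counted in the same way. Many snoRNAs are released from introns of genes for ribosomal proteins and translation factors, and copies of spliceosomal snRNA genes lie within protein-coding genes.

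As a check of the labels, the single C site called among the 13240 tested in the whole table, in the mitochondrial tRNA gene mt-Tt, was cleaved at 1.7% to 2.51% in the cKO libraries and at 93.7% to 94.7% in the WT libraries. In RNA-seq, Mettl8 itself read 59.3 to 80.9 CPM (counts scaled to library size) in the libraries labelled cKO and 35.9 to 58.6 CPM in the libraries labelled WT. A count over the whole gene does not show whether part of it is deleted, so it does not check those labels. Median coverage of the 1203 sites ran from 112 to 144 reads in the cKO libraries and from 132 to 185 in the WT libraries. The summed level of 7 neural progenitor markers ran from 11000 to 15200 CPM in cKO and from 12400 to 15700 CPM in WT, that of 4 neuronal markers from 1680 to 2580 CPM in cKO and from 1640 to 2410 CPM in WT, and that of 4 oligodendrocyte lineage markers from 227 to 460 CPM in cKO and from 267 to 468 CPM in WT. The microglial sum stayed at or below 7.76 CPM and the endothelial sum at or below 2.22 CPM in every library. The library of cKO replicate 3 stood apart in coverage at some of the sites, and the differences it touches most are given with and without it.

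Sequences around the sites were available only in RefSeq windows of 250 bases before to 50 bases after a gene's start (build GRCm38.p6, the build of the HAC-seq table), which held 40 of the 1203 sites. All windows below run 5′ to 3′ on the strand of the reads, and capitals mark the well-cleaved C. They hold sites described below, just before and inside an snRNA copy, inside the U7 snRNA, after transcript starts and just before an atg. The sites in BC107364 belong to an snRNA copy at chr3:96450435-96450464 (+), and that in Grcc10 to the U7 gene Rnu7 at chr6:124741268-124741288 (-). The others lie in the start windows of Rps6 at chr4:86857355-86857375 (-), H4c3 at chr13:23698440-23698460 (-), H3c2 at chr13:23752369-23752389 (+), H3c4 at chr13:23575791-23575811 (+) and Rpl27a at chr7:109519208-109519229 (+). From the RefSeq start, the C lay 2 bases on in Rps6 and 8 in H4c3. It lay 34 bases on in H3c2, 38 in H3c4, and 23 and 24 in Rpl27a, so these are not at the annotated 5′ end.
BC107364: gctgggagagCataCttaCCtggCagggga
Grcc10: gcaagtgttaCagctctttta
Rps6: agtcgggcctCtttttcgtga
H4c3: ctgtcataacCatgtctggac
H3c2: ttgttaaagtCatggctcgta
H3c4: tttttcttatCatggctcgta
Rpl27a: tctgccaccgCCatggtaggtc

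Most of the sites were cut in a minority of reads. Of the 1203, 923 had a WT mean ratio from 10% to under 20%, 212 from 20% to under 50%, 26 from 50% to under 90% and 42 at 90% or more. The site ratios had a median of 14.0% in cKO and 13.4% in WT. By library the medians were 14.5%, 14.0% and 13.8% in cKO, against 13.2%, 13.6%, 14.0% and 14.8% in WT, so the library medians of the genotypes overlapped. In the cKO mean, 966 of the 1203 sites also reached 10%, and 675 did so in every one of the 3 cKO libraries. The number that did so in every one of the 4 WT libraries, which chose the sites, was 675. These counts rest on different numbers of libraries and on chosen WT values, so they are not like measures. Just inside the threshold lay Gm11077, H2ac20 and Tuba1c and just outside it Tnc, Rpl18 and Pde6a, which all rounded to a WT mean of 10% except Pde6a at 9.97%.

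**Figure D1:**
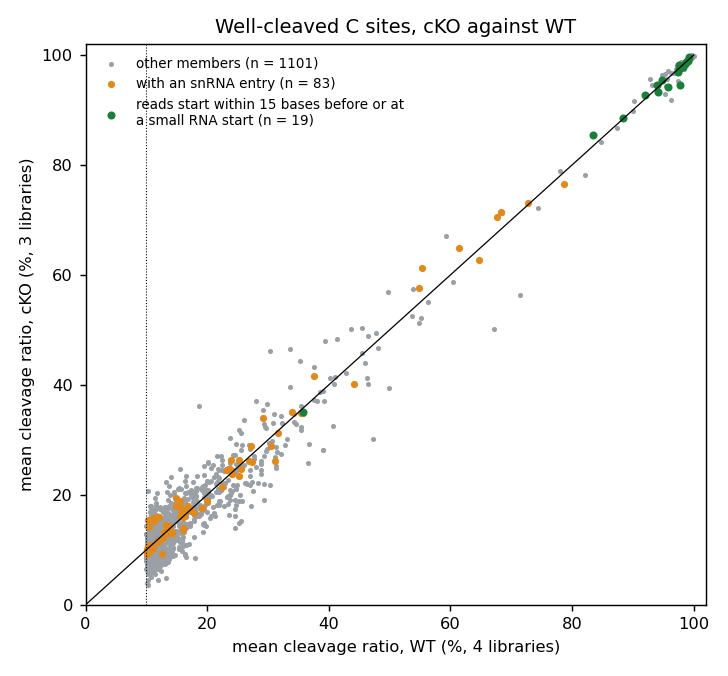
Mean cleavage ratio in the 3 cKO libraries (vertical, %) against the mean in the 4 WT libraries (horizontal, %) for the 1203 sites, with the line of equality and the threshold of 10% dotted. Sites with an snRNA entry and the 19 sites whose reads begin at or up to 15 bases before a RefSeq small RNA are coloured, and the sites at 90% or more lie along the line.

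No site of the 1203 was called between cKO and WT. The test was a quasi-binomial fit of read starts out of coverage over all 13240 tested sites of the table, with dispersions squeezed by limma and Benjamini-Hochberg adjustment at 0.05. Over all tested sites 0.00755% were called, and the smallest adjusted p among the 1203 was 0.518. At an unadjusted p under 0.05, 51 of the 1203 sites were higher and 50 lower in cKO, where the table as a whole had 6.62% higher and 2.02% lower. At 37 sites every cKO library exceeded every WT library, and at 48 every cKO library was lower than every WT library, against 5.43% and 2.03% of all tested sites. The median difference, cKO minus WT, was -0.383 percentage points over the 1203 sites and 0.57 points over all tested sites. Over the 1203 it was -0.0614 points without WT replicate 4, -0.242 without WT replicate 3, -0.246 without cKO replicate 3 and -0.226 without cKO replicate 2. Among the 1203, 540 were higher and 663 lower in cKO, which is 44.9% higher, where 61.4% of all tested sites were. With sites chosen by the cKO mean in place of the WT mean, the median difference was 1.89 points over 1588 sites, so the sign of this median depends on which genotype chose the sites.

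The 42 sites at 90% or more lay in 40 genes and stayed near-complete in cKO. Their median was 97.3% in cKO and 97.4% in WT, and single differences ran from -4.25 to 2.88 points. At the highest, in Cfap61, a gene for a protein of the ciliary axoneme, the C on chromosome 2 at position 146098427 had 99.4%, 100% and 100% in cKO and 100% in each WT library. Over the pooled reads, 472 of 473 in cKO and 525 of 525 in WT began at the next base, with exact Clopper-Pearson 95% intervals of 98.8% to 100% and 99.3% to 100% that cover counting error only. Cfap61 mRNA was hardly measured in the RNA-seq libraries, at 0.332 CPM at most in cKO and 0.386 CPM at most in WT.

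Other genes at the top have unrelated roles. The site in Klf8, a zinc finger transcription factor, averaged 99.4% ± 0.0581 in cKO and 99.7% ± 0.35 in WT (SD, n = 3 and 4). The site in Rbl1, the retinoblastoma-like protein p107, had 100% in every cKO library and 100%, 100%, 98.7% and 100% in WT. The site listed first under Atp5o, an ATP synthase subunit, is read on the opposite strand, that of the endocytic adaptor gene Itsn1, and averaged 99.8% ± 0.376 in cKO and 99.5% ± 0.554 in WT. In the remaining genes of the highest group that have no RefSeq small RNA at the site, the O-mannosyltransferase gene Tmtc1, the helicase gene Dhx32, the ligand gene Wnt7b and the growth factor receptor gene Igf1r, cKO means ran from 98.2% to 99.4% and WT means from 98.6% to 99%. The unadjusted p of the fit was 0.346 at Klf8 and 0.609 at Wnt7b.

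A share of the near-complete sites lay at or shortly before the 5′ end of an annotated small RNA. At 16 of the 42 sites (38.1%), reads began at the first base of a RefSeq small RNA or up to 15 bases before it, and at 12 of them within 2 bases of it. The same was true of 2 of 26 sites at 50% to under 90%, of 1 of 212 at 20% to under 50%, of 0 of 923 below that and of 0 of the 7162 other tested sites in nuclear protein-coding genes. The rule removes a site only where the table itself lists a snoRNA or scaRNA, so a C that lies before the annotated RNA stays. The other tested sites were subject to the same removal. The rule thus bears on the class of WT ratio and on the position, and these counts are a description.

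**Figure D2:**
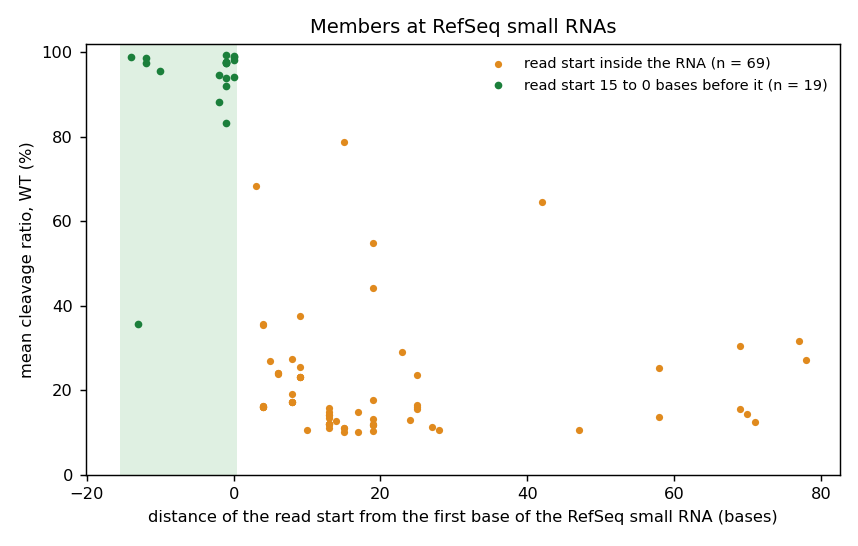
Mean WT cleavage ratio (vertical, %) against the distance in bases of the read start from the first base of the RefSeq small RNA (horizontal, 0 is the first base) for the sites at such RNAs. Of the 19 sites in the shaded range from 15 bases before to 0, 18 lie at 83.4% or more, and the 69 sites inside the RNA lie between 10.1% and 78.7%.

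Ribosomal protein genes, whose introns host snoRNAs, held several of these ends. In Rpl4, reads began 1 base before the snoRNA gene Gm23136, with ratios of 99.6%, 99.5% and 99.6% in cKO and 99.3%, 99.5%, 99.2% and 99.3% in WT. All 3 cKO values were at or above every WT value and the fit gave an unadjusted p of 0.441. A second site of Rpl4 lay where reads began 10 bases before Snord16a, at 94.1% ± 1.8 in cKO and 95.7% ± 1.9 in WT. In Rpl5, reads began 1 base before Snord21, a box C/D RNA that guides 2′-O-methylation, at 97.6% ± 0.617 in cKO and 97.8% ± 0.406 in WT. In Rpl3, reads began 14 bases before Snord43, which the table lists as a miRNA, at 98.8% ± 0.465 in cKO and 98.8% ± 0.634 in WT (SD, n = 3 and 4 throughout).

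Further host genes showed the same arrangement. Reads began 12 bases before Snord37 in Eef2, which encodes the translocation factor of elongation, with 98.1% ± 0.614 in cKO and 97.5% ± 0.603 in WT. They began 12 bases before Snord61 in Rbmx, an RNA-binding protein gene, with 98.3% ± 0.267 in cKO and 98.6% ± 0.276 in WT. They began 1 base before Snord14d in Hspa8, the constitutive HSP70 chaperone gene, with 96.9% ± 1.57 in cKO and 97.4% ± 1.42 in WT. In Nap1l1, a histone chaperone gene, reads began 1 base before Gm25117 with 94.9%, 91.6% and 97.0% in cKO and 98.8%, 97.7%, 97.8% and 97.1% in WT. All 3 cKO values of Nap1l1 were below all 4 WT values, at an adjusted p of 0.575. Its difference was -3.33 points.

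Of the 1203 sites, 87 in 36 genes had an snRNA entry beside the protein-coding one, mostly copies of spliceosomal snRNA genes, and 4 of the 87 are among the 19 sites at small RNA ends. Their median ratio was 17.3% in cKO and 16.9% in WT, and 69 sites lay inside a RefSeq small RNA. The germ cell gene Tex14 held 10 sites in a pair of copies of U1, the snRNA whose 5′ end pairs with the 5′ splice site. In the copy Rnu1a1, the C just before the RNA had 99.1%, 99.3% and 99% in cKO and 99.1%, 99.7%, 98.7% and 99% in WT. Within the RNA the ratio was far lower, at 16.1% in cKO and 16.2% in WT at nucleotide 4, 17.3% in both at nucleotide 8, and 24.6% in cKO and 23.2% in WT at nucleotide 9. At nucleotide 13 it was 16.8%, 12.7% and 18.2% in cKO, against 10.6%, 12.4%, 12.7% and 12.5% in WT. Replicates 1 and 3 of cKO were above every WT library at nucleotide 13, while replicate 2 was level with the highest WT library.

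The nucleotide 13 site gave nearly the same numbers in Tex14, Ss18 and Rock1, which hold copies of the same RNA and so share reads, and they count as 1 measurement. Its difference was 3.9 points in Tex14 (unadjusted p = 0.00252, adjusted p = 0.518). Without cKO replicate 2 it was called in these 3 genes, at 4 sites, the lowest adjusted p being 0.0336, and 22 of all 14219 sites tested (0.155%) were called in that fit. These were the only cleavage calls among the 1203 sites under any of the alternatives. The U1 copy in BC107364 printed above had the same 5 sites. The ratio just before the RNA was 93.2% ± 2.22 in cKO and 94.2% ± 2.92 in WT, that at nucleotide 9 was 41.7% ± 3.31 in cKO and 37.6% ± 2.66 in WT, and that at nucleotide 13 was 19.4% ± 3.62 in cKO and 14.8% ± 2.49 in WT (SD, n = 3 and 4). Of the 87 snRNA sites, 15 had an unadjusted p under 0.05, all higher in cKO, which is 17.2% against 6.62% of all tested sites. Of these 15, 8 are the nucleotide 9 and 13 sites of the near-identical U1 copies in Tex14, Ss18 and Rock1, and cKO replicate 2 was the lowest cKO library at 10 of the 15 and above every WT library at 9.

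U5 and other snRNA genes showed ends and inner sites as well. In Parp16, read on the strand opposite to the gene, the C just before the U5 copy Gm25313 had 98.0%, 97.8% and 98.0% in cKO and 98.3%, 97.3%, 98.8% and 98.4% in WT. Inside the RNA the ratio was 34.9% ± 1.45 in cKO and 35.7% ± 1.87 in WT at nucleotide 4, and it was 23.7% ± 1.24 and 24.1% ± 2.0 at nucleotide 6 in cKO and WT. At nucleotide 15 it was 10.4% ± 1.23 in cKO and 11.1% ± 1.13 in WT. The U5 gene Rnu5g, elsewhere in Parp16, gave nearly the same values at each of the inner sites. In Rdm1, a gene of the RAD52 motif family, an snRNA gene listed as LOC115487916 had 71.4% ± 1.82 in cKO and 68.3% ± 5.08 in WT at nucleotide 3, and 14.2% ± 3.66 in cKO and 10.5% ± 0.948 in WT at nucleotide 28. In Cep350, a centrosomal gene, an snRNA entry on the opposite strand had 70.6% ± 1.87 in cKO and 67.6% ± 5.24 in WT (SD, n = 3 and 4). Without WT replicate 1 the WT mean was 70.6% at nucleotide 3 in Rdm1 and 70.0% in Cep350. Without WT replicate 4 it was 66.7% and 65.9% in the same order. These sites in Rdm1 and Cep350 may thus not be separate measurements. The nucleotide 28 site in Rdm1 had 180339 to 310899 reads per library, and its ratios were 18.2%, 11.1% and 13.1% in cKO, against 9.23%, 10.5%, 11.3% and 11.1% in WT. In Grcc10, nucleotide 9 of U7, the snRNA of histone pre-mRNA processing, had 24.7% ± 5.97 in cKO and 25.6% ± 1.39 in WT.

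**Figure D3:**
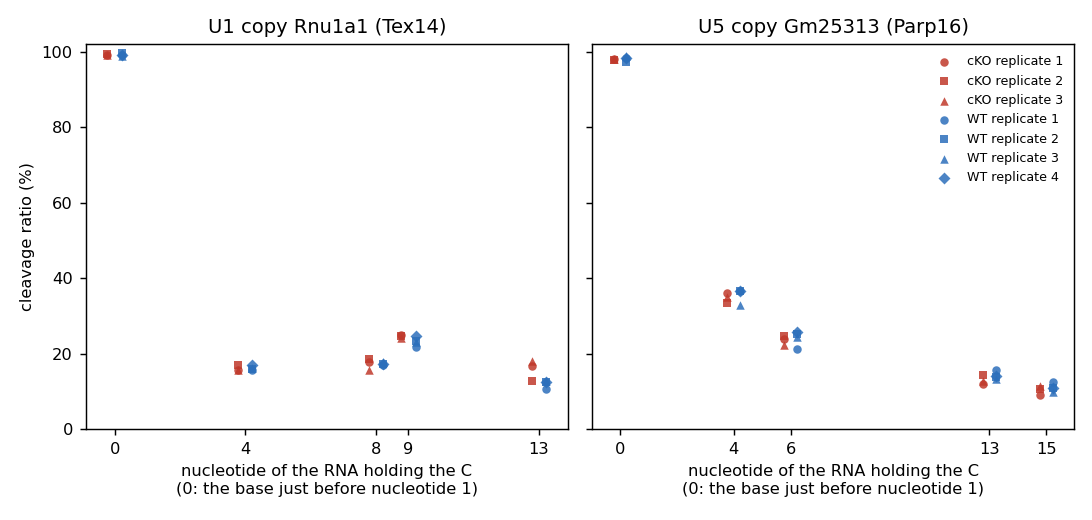
Cleavage ratio (vertical, %) by the nucleotide that holds the C (horizontal, 0 is the base before nucleotide 1) in the U1 copy Rnu1a1 in Tex14 and the U5 copy Gm25313 in Parp16, 1 symbol per library, cKO left of WT. The site at 0 lies between 97.3% and 99.7% in all libraries, the inner sites lie between 9.02% and 36.7%, and only nucleotide 13 of U1 has a pair of cKO libraries well above the WT libraries.

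In the windows around annotated transcript starts, 29 sites lay at or after the RefSeq start and 11 before it, out of 184 tested sites in such windows. Histone genes held 13 of the 40 and ribosomal protein genes 4. In Rps6, which encodes a ribosomal protein of the small subunit that is phosphorylated downstream of mTOR, the C lay 2 bases after the first base of the transcript. Its ratio was 35.8%, 40.2% and 35.4% in cKO, against 28.4%, 44.2%, 41.8% and 42.2% in WT, and the genotypes overlapped. In H4c3, a histone H4 gene, the C 8 bases after the start had 29.3% ± 3.98 in cKO and 24.8% ± 3.71 in WT (SD, n = 3 and 4). The base after the C was A at 15, T at 14, C at 6 and G at 4 of 39 sites with a readable next base. At 4 of 39 (10.3%), in H3c2, H3c4, H4c3 and Rpl27a, the next letters on the same strand were ATG, as at 4.35% of the other tested sites in such windows. In H3c4, the ratio before this ATG was 18.9%, 20.5% and 20.3% in cKO, against 17%, 11.7%, 16.9% and 10.3% in WT. All 3 cKO values were above all 4 WT values in H3c4, at an unadjusted p of 0.115.

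Sites often lay side by side. Of the 1203, 348 (28.9%) had another of them on the next base of the same strand and 623 (51.8%) had one within 10 bases. Among the 7162 other tested sites of nuclear protein-coding genes, 22.6% had a neighbour of their own kind on the next base and 52.9% within 10 bases. Of the 559 genes, 291 held 1 site and 52 held 5 or more. In the largest group, 25 sites in Myo3a, an unconventional myosin gene, all lay within 2073 bases on the strand opposite to the gene, where the table also lists unprocessed pseudogenes. RNA-seq had no Myo3a read in any library. Their median ratio was 16.3% in cKO and 15.5% in WT, and at the highest, position 22589423, it was 57.4% ± 6.34 in cKO and 53.9% ± 3.51 in WT (SD, n = 3 and 4).

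Further genes held 11 to 15 sites. Nmbr, the neuromedin B receptor gene, held 15 sites with medians of 14.8% in cKO and 13.5% in WT, all opposite to the gene and at processed pseudogenes. Slc1a1, a neuronal glutamate transporter gene, held 11 antisense sites at 22.3% in cKO and 19.9% in WT. Cd80, a costimulatory ligand gene of immune cells, held 12 sites at 13.3% in cKO and 13.1% in WT, and Gm44511 held 12 at 14.7% in cKO and 15.6% in WT. In all, 263 of the 1203 sites were read on the strand opposite to the first gene, 278 carried a pseudogene entry, and 129 had exactly the read starts and coverages of another site, as reads shared between copies would give. At these sites the protein-coding gene listed first may not be the source of the reads.

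By gene family, the sites were described with the lists of genes below, and no site on any list was called, against 0.00755% of all tested sites. The replication-dependent histone genes, whose mRNAs end in a stem-loop in place of a poly(A) tail, held 136 sites in 42 genes, with a median of 16.1% in cKO and 14.7% in WT and a median difference of 0.38 points. Of the 136 sites, 5 were higher and 0 lower in cKO at an unadjusted p under 0.05, in H2bc9, H2bc13, H2bc14, H2bc15 and H3c8. That is 3.68% higher and 0% lower, against 6.62% and 2.02% of all tested sites. The highest was in H2ac6, a histone H2A gene, with 22.4%, 29.6% and 32.9% in cKO, against 29.4%, 27.5%, 33.8% and 28.7% in WT. In H4c6 it was 21.7%, 29.3% and 12.4% in cKO, against 21.5%, 26.5%, 24.1% and 27.0% in WT. The genotypes overlapped at both, and 43 of the 136 histone sites had the same numbers as another site.

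Cytosolic ribosomal protein genes held 59 sites in 36 genes, at 12.6% in cKO and 12.7% in WT, with a median difference of -0.808 points. At an unadjusted p under 0.05, 1 was higher, in Rpl27a, and 1 lower, in Rps7, which is 1.69% each way, against 6.62% higher and 2.02% lower of all tested sites. The second C of the Rpl27a window printed above had 15.4%, 14.2% and 22.7% in cKO, against 7.34%, 15%, 8.94% and 11.6% in WT (adjusted p = 0.575). Translation factor genes held 13 sites, at a median of 11.9% in cKO and 11.4% in WT. The highest of them beside the snoRNA end in Eef2 was in Eef1a1, which encodes the factor that brings aminoacyl-tRNA to the ribosome, with 53.2%, 44.9% and 52.8% in cKO, against 43.0%, 42.8%, 45.1% and 51.1% in WT. Replicate 2 of cKO lay within the WT range there and replicate 4 of WT within the cKO range. The single translation factor site at an unadjusted p under 0.05 was another C of Eef1a1 (position 78481651), with 6.78%, 7.9% and 6.9% in cKO, against 10.5%, 11.8%, 8.92% and 9.12% in WT. All 3 cKO values were below all 4 WT values there (adjusted p = 0.575).

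The remaining lists held few sites. Cytoskeletal genes had 30 sites at 12.3% in cKO and 11.4% in WT, of which 3 were higher in cKO (10%) and 2 lower (6.67%) by an unadjusted p under 0.05, against 6.62% and 2.02% of all tested sites. Those higher lay in Actg1, Tmsb10 and Tubb2a and those lower in Cfl1 and Tuba1c. The highest site of the list, in the thymosin gene Tmsb10, had 22.3% ± 3.18 in cKO and 27.4% ± 7.72 in WT, and that in Nes, the intermediate filament gene of neural progenitors, had 23.5% ± 5.41 in cKO and 27.1% ± 6.71 in WT (SD, n = 3 and 4). Glycolysis genes held 22 sites at 12.7% in cKO and 12.3% in WT, with Gapdh highest at 17% ± 6.96 in cKO and 17.9% ± 5.77 in WT. A single glycolysis site had an unadjusted p under 0.05, in the glucose phosphate isomerase gene Gpi1, with 8.4%, 11.7% and 3.17% in cKO, against 12.8%, 13.6%, 12.6% and 15.5% in WT (adjusted p = 0.575). Chaperone genes held 10 sites at 13.8% in cKO and 12.3% in WT, ATP synthase and carrier genes 5 at 11.4% in cKO and 12.5% in WT, and genes for RNA-binding and nucleolar proteins 13 at 12.7% in cKO and 10.9% in WT. The highest of the ATP synthase and carrier list after Atp5o was in Slc25a3, the mitochondrial phosphate carrier gene, where reads began 1 base before the snoRNA gene Gm24119, with 85.4% ± 1.46 in cKO and 83.4% ± 4.88 in WT. The chaperone gene Hsp90ab1 had 40.3%, 52.8% and 25.0% in cKO, against 52.4%, 44.7%, 45.7% and 57.0% in WT, a difference of -10.6 points with all libraries and -3.4 points without cKO replicate 3. The single chaperone site at an unadjusted p under 0.05 was in P4hb, a protein disulfide isomerase gene, with 4.3%, 5.04% and 5.81% in cKO, against 10.6%, 8.2%, 13.9% and 10.6% in WT (adjusted p = 0.575). Every cKO value was below every WT value in Gpi1 and P4hb. The single site of the list of RNA-binding proteins at an unadjusted p under 0.05 was in Ddx17, an RNA helicase gene, with 13.4%, 17.9% and 14.6% in cKO, against 26.4%, 23.4%, 28.4% and 24.0% in WT. All 3 cKO values of Ddx17 were below all 4 WT values (adjusted p = 0.575).

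Sites named for a large difference or a small p showed several patterns over the libraries. At some sites all libraries of a genotype lay apart from the other. In Cep170, a centrosomal protein gene, a site on the opposite strand at a misc_RNA entry (chromosome 1, position 176794137) had 45.8%, 49.3% and 43.4% in cKO, against 30.9%, 27.0%, 29.5% and 34.0% in WT. The difference was 15.8 points and every cKO library was above every WT library, with an unadjusted p of 0.00405 and an adjusted p of 0.518. In Zswim5, again at a misc_RNA entry (chromosome 4, position 116915392), the ratio was 46.3%, 43.8% and 49.4% in cKO, against 31.5%, 31.4%, 32.1% and 39.8% in WT (adjusted p = 0.575). The next C in Zswim5, 1 base on, had 31.7%, 24.4% and 32.0% in cKO, against 28.8%, 24.4%, 33.5% and 34.0% in WT, where the genotypes overlapped. In Cfl1, which encodes the actin-severing protein cofilin, the ratio was 11%, 6.93% and 7.58% in cKO, against 20.1%, 17%, 12.7% and 22.3% in WT (unadjusted p = 0.0049, adjusted p = 0.518). In Set, a histone chaperone and phosphatase inhibitor gene named for its p, the difference was -5.79 points and the ratio was 5.06%, 7.86% and 3.79% in cKO, against 9.4%, 11.9%, 9.79% and 14.4% in WT (adjusted p = 0.574).

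At other sites 1 cKO library lay far below the other cKO libraries. In Qk, which encodes an RNA-binding protein of glia, the ratio was 34.3%, 45.6% and 10.6% in cKO, against 54.1%, 45.0%, 41.7% and 48.2% in WT. In Rps7, of the small ribosomal subunit, it was 58.5%, 62.2% and 29.9% in cKO, against 71.3%, 63.0%, 73.5% and 60.6% in WT. In Ica1, an islet autoantigen gene with a role in vesicle traffic, it was 72.4%, 66.1% and 30.3% in cKO, against 65.8%, 75.8%, 72.9% and 70.9% in WT. Replicate 3 of cKO was the lowest library in all of these, and the genotypes overlapped at Ica1, Rps7 and Qk in replicate 1 or 2. In Slc1a3, a glial glutamate transporter gene of progenitors and astrocytes, it was 33.6%, 31.5% and 12.4% in cKO, against 33.1%, 37.6%, 32.7% and 43.0% in WT, with replicate 3 of cKO again the lowest. The difference was -17.1 points in Qk, -16.9 in Rps7, -15.1 in Ica1 and -10.8 in Slc1a3 with all libraries. Without cKO replicate 3 it was -7.28, -6.74, -2.08 and -4.07 points in the same order, smaller but of the same sign.

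Over the 17 sites with a difference of -8 points or lower, cKO replicate 3 was the lowest library at 13, and over all 1203 sites it was the lowest at 23.4%. The median difference over the 17 was -5.5 points without that library. Over the 11 sites with a difference of 8 points or more, cKO replicate 1 was the highest library at 8, against 19.0% of all 1203. Among these was the site of the largest difference, in Myo3a at position 22589110, with 49.3%, 21.3% and 38.1% in cKO, against 19.6%, 17.1%, 20.8% and 17.4% in WT (unadjusted p = 0.0066, adjusted p = 0.562). Every cKO library was above every WT library at this Myo3a site, replicate 2 only narrowly. In Sf3a3, a splicing factor gene, the ratio was 44.2%, 54.8% and 33.8% in cKO, against 26.3%, 43.5%, 34.8% and 36.1% in WT. Tecpr2, an autophagy gene, had 38.1%, 17.2% and 14.5% in cKO, against 21.3%, 11.2%, 15.7% and 8.22% in WT. At the site listed under Mep1b, a metalloprotease gene, the ratio was 35.1%, 10.4% and 15.6% in cKO, against 15.6%, 10.3%, 9.28% and 11.8% in WT. The Mep1b site is a duplicate in its counts of a site elsewhere, so the 11 sites may not all be separate measurements. RNA-seq gave Mep1b 0 CPM in every cKO library and 0.121 CPM at most in WT. Mep1b may thus not be the source of these reads. The genotypes overlapped at Sf3a3, Tecpr2 and Mep1b. These sites were picked for their differences, so the figures on them are a description.

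**Figure D4:**
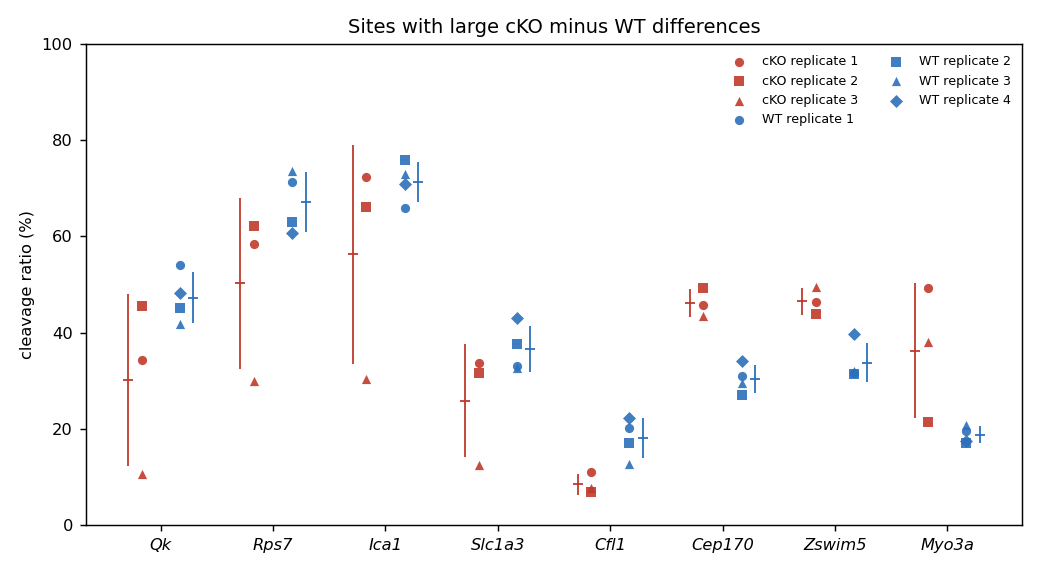
Cleavage ratio (vertical, %) in each library at 8 sites with large differences, cKO left of WT, with bars for the mean ± SD of each genotype. In Qk, Rps7, Ica1 and Slc1a3 the triangle of cKO replicate 3 lies far below the other cKO libraries. In Cfl1, Cep170, Zswim5 and Myo3a every cKO library lies on the same side of every WT library. In Zswim5, WT replicate 4, at 39.8%, lies apart from the other WT libraries.

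Coverage gave no call among the 1203 sites in edgeR's quasi-likelihood test over all 13240 tested sites (background 0.00755%), and 173 (14.4%) had an unadjusted p under 0.05, against 10.8% of all tested sites. Limma-voom also called 0. The median log2 fold change of coverage, cKO over WT, was 0.044 over the 1203 sites and 0.00281 over all tested sites. Coverage differed 8 times or more between libraries at 46 of the 1203 sites, in 15 genes, and cKO replicate 3 was the highest library at all 46. Of all tested sites, 1.7% were of this kind. In Zc3h7a, a gene for a zinc finger protein, the site at a miRNA entry had 17915, 15806 and 123270 reads in cKO, against 28657, 15887, 19344 and 7839 in WT. In Zfp791, another zinc finger gene, it had 341, 222 and 23249 reads in cKO, against 358, 265, 315 and 189 in WT. In Cmss1 it had 1732, 1017 and 27945 reads in cKO, against 1557, 1250, 1605 and 742 in WT. Only the library of cKO replicate 3 stood out at each. Without cKO replicate 2, 36 of the sites were called, all higher in cKO, and they lay in 13 genes, of which only Mroh6 is not among those 15. In that fit 188 of all tested sites (1.42%) were called. Without WT replicate 3, 4 sites were called, in Mfsd14b, Rgsl1, Tcf4 and Tmem237, of 5 (0.0378%) in the whole table.

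The ratio at such sites moved in either direction in that library. In Zc3h7a it was 28.2%, 28.2% and 18.4% in cKO, against 29.5%, 31.7%, 28.7% and 35.7% in WT (adjusted p = 0.518). In Zfp791 it was 43.4%, 49.1% and 57.8% in cKO, against 43.3%, 40.0%, 46.3% and 45.0% in WT (adjusted p = 0.518). In Cdk8, which encodes a kinase of the Mediator complex, it was 25.2%, 27.8% and 12% in cKO, against 24.2%, 25.0%, 31.2% and 28.0% in WT. The difference was -6.46 points in Zc3h7a, 6.45 in Zfp791 and -5.45 in Cdk8 with all libraries, and -3.18, 2.6 and -0.603 points without cKO replicate 3. The median difference over the 46 sites was -1.01 points. Whether the coverage of cKO replicate 3 has a part in the ratios was not tested.

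**Figure D5:**
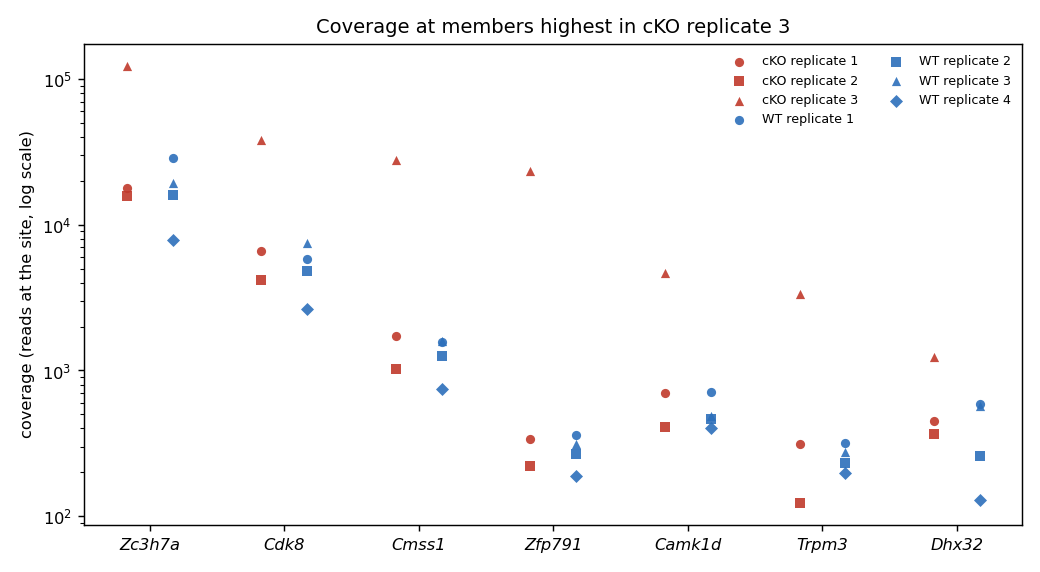
Coverage in reads (vertical, log scale) in each library at 7 sites, cKO left of WT. The triangle of cKO replicate 3 is the highest point at every site, up to 123270 reads at Zc3h7a, and both other cKO libraries lie within or near the range of the WT libraries.

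RNA-seq was used to ask whether the genes that hold the sites differed in mRNA level. Of the sites, 263 were read on the strand opposite to the first gene and 278 carried a pseudogene entry. At those sites the mRNA of the listed gene may not be the RNA that was read. Of the 559 genes, 544 had a row in the RNA-seq table, 80 of them under an older symbol, and 435 had enough reads to be tested. None was called with edgeR's quasi-likelihood test, where 0% of all 13105 genes tested were called, and DESeq2 and limma-voom called 0 of the 435 as well. At an unadjusted p under 0.05, 16 were higher and 13 lower in the libraries labelled cKO, which is 3.68% and 2.99%, against 2.86% and 3.28% of all genes. The median log2 fold change, cKO over WT, was -0.00844 over these genes and -0.000996 over all genes. The smallest adjusted p, 0.803, was shared by 23 of the genes. The smallest unadjusted p among them, 0.000779, was that of Tafa2, which encodes a secreted chemokine-like protein and had a log2 fold change of -0.997 ± 0.25 (SE). Tafa2 was low, at 0.389 to 4.15 CPM in cKO and 1.49 to 7.26 CPM in WT, and the genotypes overlapped. In bulk RNA, fewer cells that express a gene and less RNA per cell cannot be told apart.

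Genes named for a large difference in cleavage had overlapping mRNA levels. Cep170 had a median of 251 CPM (214 to 293) in the libraries labelled cKO and 225 CPM (202 to 258) in those labelled WT, and its log2 fold change was 0.0796 ± 0.0546 (SE). The Cep170 site is read on the opposite strand, so the level of Cep170 mRNA may not be that of the RNA read there. Cfl1 had 363 CPM (341 to 414) in cKO and 345 CPM (325 to 406) in WT, and Qk had 7450 CPM (6150 to 8030) in cKO and 7760 CPM (6720 to 8560) in WT. The genes with near-complete sites covered a wide range of mRNA levels, and 32 of the 40 could be tested. Rpl4 had a median of 1320 CPM in cKO and 1340 CPM in WT, while Klf8 had 2.77 CPM in cKO and 2.92 CPM in WT, although coverage at the Klf8 site ran from 137 to 267 reads. Cfap61, Tex14, Rgsl1, Ostn and BC107364 had too few RNA-seq reads to be tested, and sites in all of these were cleaved at 90% or more.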

How the data were processed

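Members and gene lists were chosen with earlier results of these data known. The tools named in the submitters' processing notes are STAR 2.5.2a, Trimmomatic 0.32 and bcl2fastq 2.17.1.14. The counting program and the annotation: not given in the sources used here. Per the file headers, the deposited HAC-seq file keeps cytidines at which more than 1 read of each WT library starts 1 bp downstream. For each library the authors deposited those read starts (a signal per site, in whole reads), the count of all reads there, and their quotient as a fraction. The authors' deposited p-value was not used. The RNA-seq table deposited by the authors holds raw counts per gene.

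Of 135582 entries, 16692 repeats were dropped. Sites with coverage of 50 or more in each of 7 libraries and a mean ratio of 0.05 or more were tested (13240). A quasi-binomial model with genotype as its term was fitted to read starts out of coverage, with dispersions squeezed by limma 3.58.1 and held at 1 or more. Coverage and RNA-seq counts were tested by edgeR 4.0.16 (TMM, two-sided quasi-likelihood F test), with the 2 library sets as a covariate for RNA-seq, in R 4.3.3. DESeq2 1.42.0 and limma-voom served as alternatives. RNA-seq totals ran from 11830839 to 15766429 in cKO and from 15096888 to 18863781 in WT. The reported cleavage and RNA-seq fits were run on simulated data, and the coverage fit was not. All sample columns were used.

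Sites named in the text, 1 per gene, were those of highest WT ratio, largest and smallest difference, smallest p and highest coverage, those of the genes with most sites, the highest of each list, and those next to the threshold. Other sites (further near-complete, snRNA, transcript start and second sites of a gene, list sites of small p, Slc1a3 and the sites of uneven coverage) and the gene Tafa2 were named after their values were seen. Read-start positions were set against RefSeq small RNAs, whose table gives no strand. At the 5′ ends, 17 of 19 RNAs had a strand in the deposited table, and all 17 lay on the strand of the reads. Histone genes are named by current symbols. Some sites and a sequence are not reported here. No sequence is shown for the sites of highest ratio outside the RefSeq windows. Replicate numbers were not taken as pairs.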

Additional observations from a re-analysis of the deposited data

Results flagged for a closer look

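In 63 groups of 4 WT libraries, 1 library lay far from the other 3 in 5, where chance gives about 1 in 20. In Zswim5, WT replicate 4 had 39.8%, against 31.5%, 31.4% and 32.1% in the others. In Nmbr, WT replicate 3 had 16.9%, against 33.0%, 31.9% and 30.5%. In Cd80, WT replicate 2 had 23.4%, against 18%, 18.3% and 18.1%. In H2ac20, just inside the threshold, WT replicate 4 had 16.4%, against 7.27%, 8.75% and 7.61%. In Rbl1, WT replicate 3 had 98.7%, against 100% in each of the others.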

How the results depend on the processing

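When each HAC-seq library was left out, the median cleavage difference stayed below 0 but ran from -0.463 to -0.0614 points, the smallest without WT replicate 4, against -0.383 with all libraries; it was -0.988 at a coverage minimum of 20 and -0.0863 at 100. The count of cKO means at 10% ran from 945 to 974 sites without a cKO library. Sites called between genotypes numbered 0 to 4 without single libraries and 0 under every other alternative. Sites at an unadjusted p under 0.05 numbered 51 higher and 50 lower in the reported fit, and 69 to 153 in all without single libraries, 47 at a coverage minimum of 100, 159 at a mean ratio minimum of 0.01, 63 at a minimum of 0.1 and 59 with a replicate block on 6 libraries, against 83 without the block on the same 6. The number of sites was 753 with only protein-coding entries, 559 with 1 site per gene, 3395 at a coverage minimum of 20 and 578 at 100. The median difference was 1.89 points with sites chosen by the cKO mean and 0.56 points by the mean of both. The median log2 fold change of coverage ran from 0.0226 to 0.0691 without single libraries, was 0.0307 with the replicate block and 0.0894 at a coverage minimum of 20, and the sites called for coverage numbered 0 to 36 without single libraries. Without a filter on low RNA-seq counts 10 of 522 host genes were called, 2 higher and 8 lower in cKO, against 65 of all 20312 genes. Among the 10 were Tafa2, Apoe, Cd44, Mbp and Plk2. Under every other RNA-seq alternative 0 were called. The cause of these shifts was not tested. Deviations from the group means of same-numbered cKO and WT libraries correlated at -0.0177 to 0.0355 in HAC-seq. In RNA-seq they correlated at -0.0486 to 0.172. Whether same-numbered samples share more than a number cannot be told from these values. Dispersions squeezed towards a trend in coverage, added after seeing the data, gave 0 calls, the lowest adjusted p being 0.0562. At coverages near 50 the counting error of a single ratio limits what these 7 libraries can show.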
